A study of Saccharomyces cerevisiae with 8 samples.

Results

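The Ras, cAMP and protein kinase A (PKA) pathway of budding yeast was followed at the level of its transcripts through 9 genes chosen by name: RAS1, RAS2, CDC25, CYR1, PDE1, PDE2, BCY1, TPK2 and TPK3. All 9 were found among the 7105 genes of the table and all 9 passed the filter on low counts. RNA came from 8 cultures of BY4743, a diploid of the S288C background that is homozygous for his3Δ1, leu2Δ0 and ura3Δ0, with 2 cultures in each of 4 groups and synthetic complete medium lacking uracil throughout. ρ0 PDE2 cells carried PDE2 on a high-copy 2µ-URA3 plasmid, ρ0 TIP41 cells carried TIP41, a gene of the TORC1 pathway, on such a plasmid, and ρ0 vector cells carried the empty vector. Ethidium bromide (EtBr), which destroys mitochondrial DNA (mtDNA), had been given to these 3 groups at 25 µg/ml over 24 h, whereas ρ+ vector cells had received the empty vector and no EtBr. Any comparison of ρ0 with ρ+ cells is therefore also one of EtBr-treated with untreated cells, and mtDNA loss and EtBr cannot be told apart. The replicates of a group are numbered 0 and 1. They came from different experimenters, per the study's methods.

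Glucose acts on this pathway through the receptor Gpr1p with its G protein Gpa2p, and through the small GTPases Ras1p and Ras2p, which the exchange factor Cdc25p loads with GTP. Both arms act on adenylate cyclase, Cyr1p, which makes cAMP. Cyclic AMP binds Bcy1p, the regulatory subunit of PKA, and frees the catalytic subunits, among them Tpk2p and Tpk3p, while the phosphodiesterases Pde1p (low affinity) and Pde2p (high affinity) break cAMP down. Active PKA favours growth on glucose and keeps the stress factors Msn2p and Msn4p out of the nucleus. Transcript levels carry no direct reading of cAMP or of kinase activity.

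The PDE2 plasmid is the agent of the main comparison, and the segment it adds to the cell is defined by the genomic parts of its cloning primers, shown here because they fix where the extra PDE2 copies begin and end. Each was found at 1 place in the R64 genome (RefSeq sequence). The first lies on the + strand at chrXV:1012761-1012790, past the 3′ end of PDE2, and the second on the − strand at chrXV:1015335-1015360, upstream of its start codon.
Primer past the 3′ end, 30 genomic bases of 60: atctggcataataaagttgattgtcttgac
Primer before the start, 26 genomic bases of 56: atttcatgaacttacgggcttgtatg
The region between the outer ends spans 2600 bp, chrXV:1012761-1015360. It holds the PDE2 open reading frame (chrXV:1013241-1014821, − strand, 1581 bp) with 539 bases before the start codon and 480 bases after the stop codon. On both sides the region stops at the edge of the next open reading frame, with 0 bases between it and VTS1 and 0 bases between it and PRT1. PDE2 was the 1 gene of the deposited table that the region touched.

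**Figure D1:**
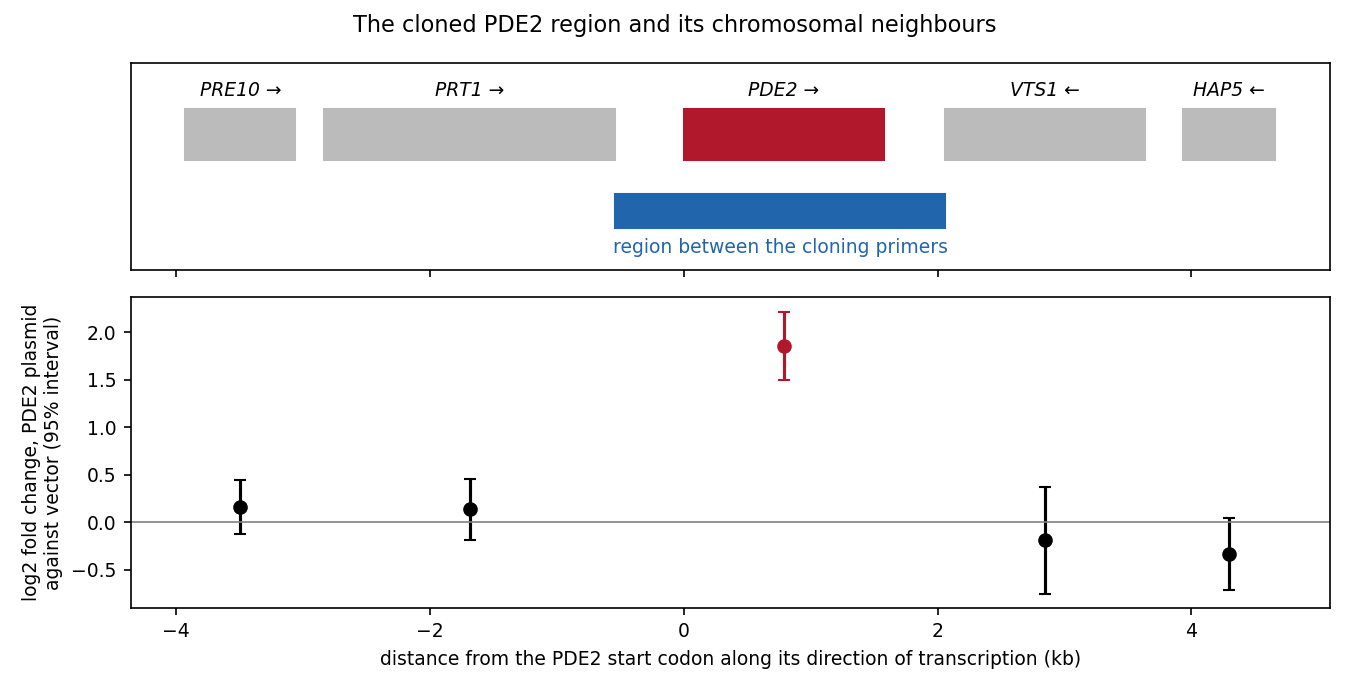
The region between the cloning primers (blue) and the PDE2 gene with 2 neighbours on each side (upper panel), and the log2 fold change of each gene in ρ0 cells with the PDE2 plasmid against ρ0 cells with the vector, with its 95% interval (lower panel), against the distance from the PDE2 start codon in kb. PDE2 lies at 1.86 and the intervals of the 4 neighbours all include 0.

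PDE2 transcripts were raised in cells with the PDE2 plasmid, and none of the 4 neighbouring genes passed the threshold there. Levels are given as TMM-scaled CPM, which are shares of a library, so that a change in RNA per cell, or in the share of cells holding a plasmid, is not told apart from a change of the gene. PDE2 had 581 and 638.5 CPM in ρ0 PDE2 cells (replicates 0 and 1 in this order throughout), 160 and 114 CPM in ρ0 TIP41 cells, 184 and 153 CPM in ρ0 vector cells and 137 and 128 CPM in ρ+ vector cells. Both ρ0 PDE2 libraries stood far above the other 6, and the 3 groups without the plasmid lay close together. The means were 609.9 ± 40.5 CPM in ρ0 PDE2 cells and 168.3 ± 21.8 CPM in ρ0 vector cells (SD, n = 2 each). The log2 fold change was 1.86 (SE 0.17), or 3.62-fold (95% interval 2.83 to 4.65), with an adjusted p of 4.67e-05 in edgeR's quasi-likelihood test over 5832 genes. Against ρ0 TIP41 cells, which carry another insert in the same kind of plasmid, PDE2 was 4.43-fold higher (log2 2.15, SE 0.17, edgeR adjusted p 8.26e-06). Against ρ+ vector cells it was 4.59-fold higher (edgeR adjusted p 2.51e-06). On deposited FPKM values with limma, an alternative that ignores the fragment numbers, the value against the vector was as large (log2 1.86) but its adjusted p was 0.0656.

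At the genes on either side of the cloned region no difference passed the threshold. VTS1, at the 3′ side, had a log2 fold change of −0.19 (95% interval −0.75 to 0.37) with the PDE2 plasmid, and HAP5 beyond it one of −0.34 (−0.72 to 0.04). PRT1, on the same strand as PDE2 and with its 3′ end at the other edge of the cloned region, had one of 0.14 (−0.19 to 0.46), and PRE10 beyond it one of 0.16 (−0.12 to 0.45). Their edgeR adjusted p lay between 0.312 and 0.713.

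The plasmids also differed in the marker gene they share. URA3, deleted from the chromosomes of this strain, had 1915 and 2700 CPM in ρ0 PDE2 cells, 5658 and 7211 CPM in ρ0 TIP41 cells, 16950 and 15620 CPM in ρ0 vector cells and 13420 and 14590 CPM in ρ+ vector cells. It was thus lowest in the cells with the PDE2 plasmid and did not overlap between those cells and any other group. Against the ρ0 vector the log2 fold change of URA3 was −2.82 with PDE2 (SE 0.21, edgeR adjusted p 5.81e-06) and −1.34 with TIP41 (SE 0.20, edgeR adjusted p 0.0048). TIP41 itself had 759 and 600 CPM in its own group and 41.2 to 67.5 CPM in the other 6 libraries, 12.1-fold higher than with the ρ0 vector (edgeR adjusted p 1.44e-07). The part that plasmid copy number plays in these levels was not tested.

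A few facts on the libraries bear on all values. They held between 1389579 and 4884282 fragments in genes, and the 9 genes were covered by 44 to 1889 fragments each per library, with PDE1 and TPK2 the thinnest (44 to 159 and 50 to 210 fragments). The 31 listed mitochondrial genes had 0 fragments in all 6 ρ0 libraries and 9 and 6 fragments in the ρ+ libraries, all made from polyadenylated RNA. LEU2 had 0 fragments in all 8 libraries, and HIS3, of which the his3Δ1 allele removes only a part, had 57.2 to 86.2 CPM. Of 11 haploid-specific genes, which MATa/α diploids keep low, 6 passed the filter on low counts. MFA1 and MFA2 had at most 1 fragment in any library, which says little of genes this short. STE2 and STE3 were higher in ρ0 than in ρ+ vector cells (log2 0.92 and 2.41, edgeR adjusted p 0.026 and 0.00659). They were the 2 called of these 6, against 13.9% of all genes, and STE3 had only 7.35 and 3 fragments in the ρ+ libraries. The summed level of these 11 genes was 73.4 and 77.1 CPM in ρ0 PDE2, 60.7 and 71.7 CPM in ρ0 TIP41, 83.9 and 85.1 CPM in ρ0 vector and 53.9 and 52.6 CPM in ρ+ vector cells, and the part of such cells in the results was not tested. The deviations of same-numbered libraries from their group means were correlated, so calls that change in a fit with the replicate number as a block are given beside the results.

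In cells without mtDNA, 2 of the 9 genes changed: PDE1 was 1.99-fold higher in ρ0 vector than in ρ+ vector cells, and RAS1 was lower, at 0.638 times its ρ+ level. Over all genes, 13.9% were called in this comparison (809 of 5832 with an adjusted p under 0.05, 7.49% higher and 6.38% lower), and 2 of 9 members, 1 in each direction, is read against these shares. The groups' libraries did not overlap for 6 of the 9 genes, against 56.7% of all genes. The median log2 fold change was 0.08 over the members and 0.01 over all genes.

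**Figure D2:**
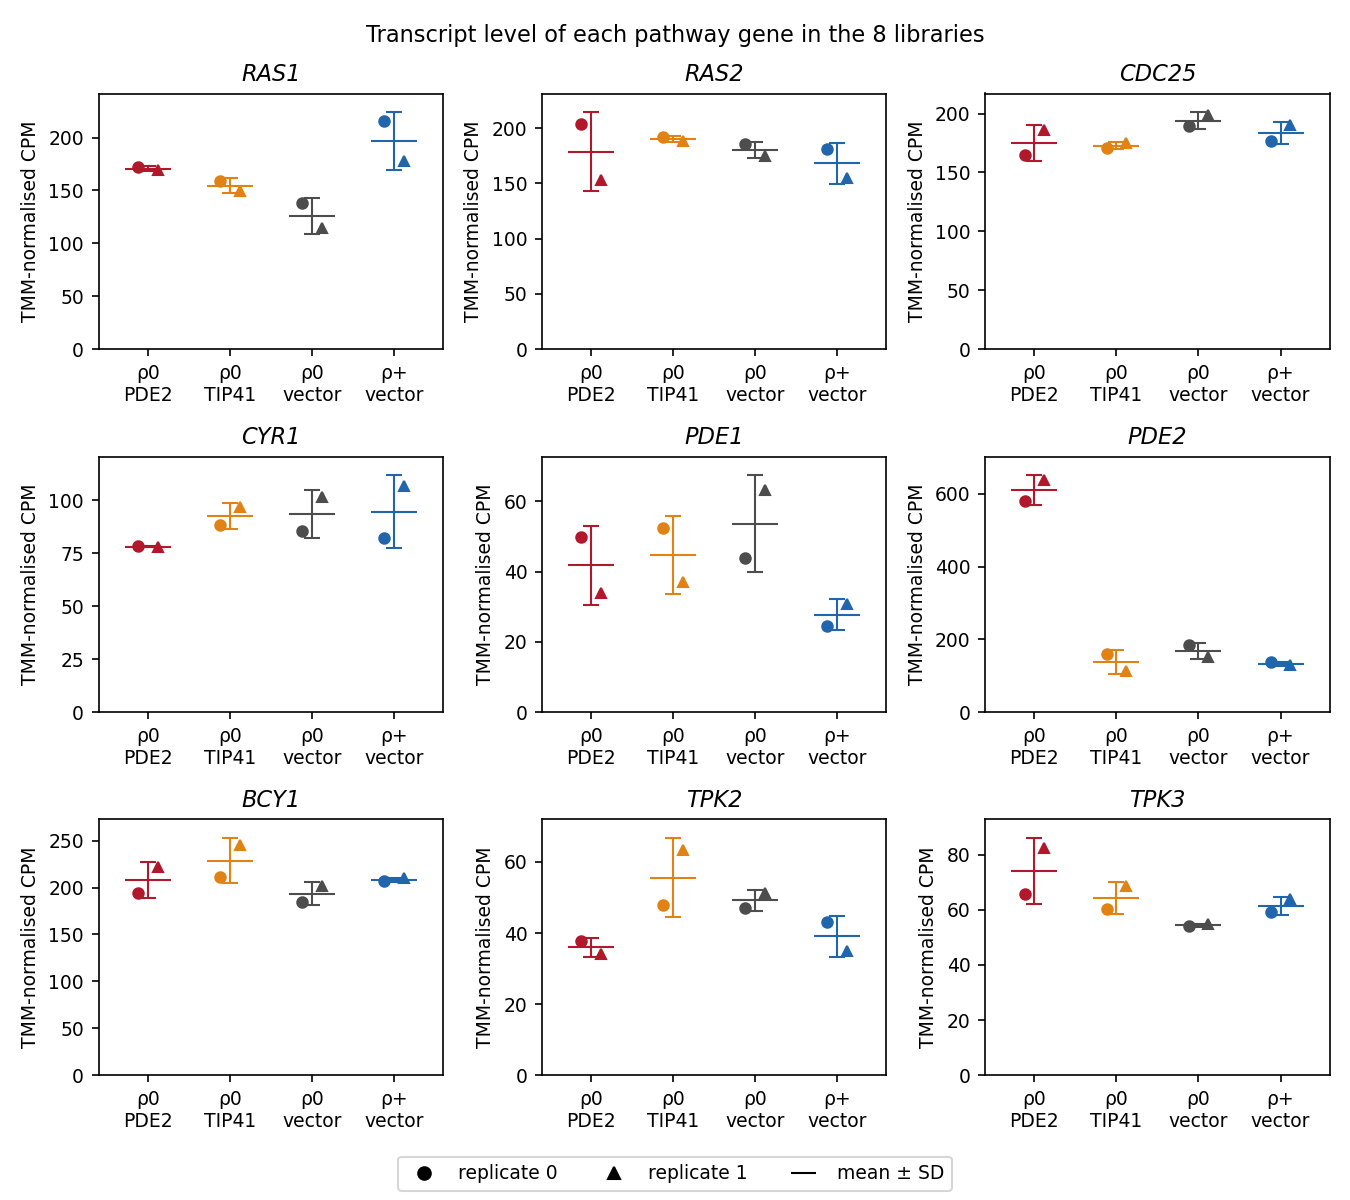
TMM-normalised CPM of the 9 genes in each library (circles replicate 0, triangles replicate 1), with the mean and SD of the 2 replicates of each group, from a zero baseline. PDE2 stands out in ρ0 PDE2 cells (581 and 638.5 CPM), PDE1 is lowest in ρ+ cells and RAS1 is lowest in ρ0 vector cells, while CDC25, RAS2 and BCY1 keep similar levels in all groups.

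PDE1 encodes the low-affinity phosphodiesterase, whose activity PKA itself is known to stimulate. It had 43.9 and 63.4 CPM in ρ0 vector cells, against 24.6 and 30.9 CPM in ρ+ vector cells. The remaining ρ0 libraries, at 49.7 and 33.8 CPM with PDE2 and 52.5 and 36.9 CPM with TIP41, also lay above both ρ+ libraries, so that all 6 ρ0 values exceeded the 2 ρ+ values. Between ρ0 vector and ρ+ vector cells the log2 fold change was 0.99 (SE 0.26, 95% interval 0.44 to 1.55), 1.99-fold, with an edgeR adjusted p of 0.023. Against ρ+ cells the corresponding values were 0.60 for ρ0 PDE2 (95% interval 0.03 to 1.19, edgeR adjusted p 0.25) and 0.76 for ρ0 TIP41 cells (0.19 to 1.32, edgeR adjusted p 0.133), both short of the threshold. These 3 comparisons share the ρ+ libraries. The call in ρ0 vector cells was lost without ρ0 vector replicate 1 (adjusted p 0.141), without ρ+ replicate 0 (0.296) and without ρ+ replicate 1 (0.0669), with log2 fold changes of 0.71, 0.80 and 1.11. In a fit of only ρ0 TIP41 and ρ+ libraries the value of 0.76 passed (edgeR adjusted p 0.00992).

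RAS1, one of a pair of partly redundant GTPase genes, had 138 and 114 CPM in ρ0 vector cells, against 216 and 177 CPM in ρ+ vector cells. The libraries did not overlap. With the TIP41 plasmid the level was 159 and 149 CPM and with the PDE2 plasmid 172 and 169 CPM, so the order of the group means was ρ0 vector, ρ0 TIP41, ρ0 PDE2 and ρ+ vector. The log2 fold change with loss of mtDNA was −0.65 (SE 0.14, 95% interval −0.95 to −0.35), a ratio of 0.638, with an edgeR adjusted p of 0.00662. The call was lost without ρ0 vector replicate 1 (adjusted p 0.0593) and without ρ+ replicate 0 (0.140), with log2 fold changes of −0.52 and −0.49. In limma on log2(FPKM + 1), the adjusted p were 0.0612 for RAS1 and 0.087 for PDE1.

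The other 7 genes had log2 fold changes between −0.17 and 0.34 with loss of mtDNA, none past the threshold. PDE2 from the chromosome, at 184 and 153 CPM in ρ0 vector cells against 137 and 128 CPM in ρ+ vector cells, did not overlap between the groups, but its log2 fold change of 0.34 (95% interval −0.02 to 0.70) had an edgeR adjusted p of 0.196. The intervals of RAS2 (−0.22 to 0.41), CDC25 (−0.19 to 0.35), CYR1 (−0.31 to 0.33), BCY1 (−0.40 to 0.18) and TPK3 (−0.50 to 0.17) left room for changes of at most about 0.5 on the log2 scale in either direction. For TPK2 the interval reached 0.68.

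With the PDE2 plasmid, none of the other 8 genes of the pathway passed the threshold in ρ0 cells, and PDE2 was the 1 member called. In this comparison 2.3% of all genes were called (134 of 5832), with 1.3% of all genes called higher. Libraries did not overlap for 6 of the 9 members, against 49.8% of all genes. An unadjusted edgeR p under 0.05 was reached by 4 members (PDE2, RAS1, TPK3 and TPK2), against 19.7% of all genes. Both counts include PDE2, whose rise was set by the plasmid that defines the comparison, so only the other 8 genes bear on the pathway. The median log2 fold change of the members was −0.02, as it was over all genes.

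**Figure D3:**
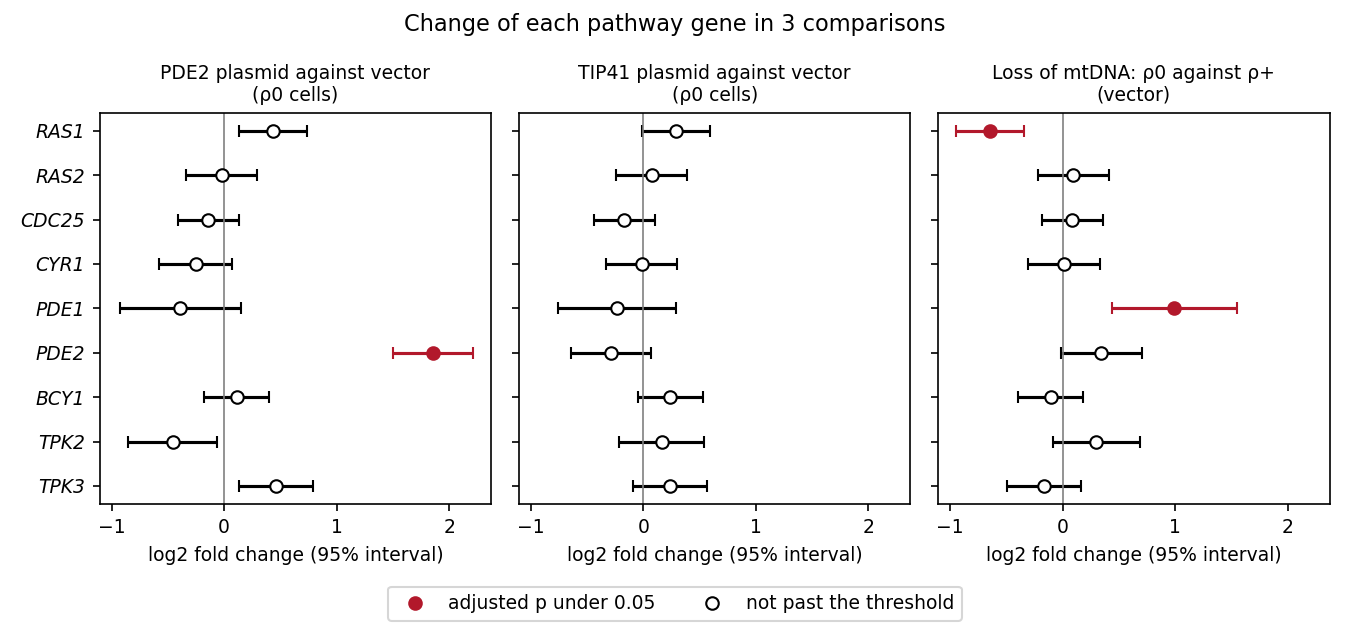
Log2 fold change of each of the 9 genes with its 95% interval for the PDE2 plasmid and the TIP41 plasmid against the vector in ρ0 cells and for ρ0 against ρ+ cells with the vector; filled red points have an edgeR adjusted p under 0.05. The red points are PDE2 with its own plasmid (1.86), and RAS1 (−0.65) and PDE1 (0.99) with loss of mtDNA.

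RAS1 was higher in both ρ0 PDE2 libraries (172 and 169 CPM) than in both ρ0 vector libraries (138 and 114 CPM). The log2 fold change was 0.43 (SE 0.14, 95% interval 0.13 to 0.74), with an edgeR adjusted p of 0.108. With the replicate number as a block it was 0.45 and its adjusted p was 0.0243, so the block changes the call. Without ρ0 vector replicate 0 the value of 0.58 also passed (adjusted p 0.0467). The ρ0 vector libraries serve in this comparison and in that of ρ0 with ρ+ cells, where RAS1 had −0.65, so a low value in them moves both. Against ρ+ vector cells, RAS1 had a log2 fold change of −0.21 in ρ0 PDE2 cells (95% interval −0.51 to 0.09) and −0.36 in ρ0 TIP41 cells (−0.66 to −0.06), with edgeR adjusted p of 0.45 and 0.178.

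The 2 catalytic subunit genes had values of opposite sign with the PDE2 plasmid. TPK3 had 65.7 and 82.5 CPM in ρ0 PDE2 cells, against 54.0 and 54.9 CPM in ρ0 vector cells, a log2 fold change of 0.46 (SE 0.15, edgeR adjusted p 0.115). TPK2 had 37.9 and 34.1 CPM in ρ0 PDE2 cells, against 47.2 and 51.2 CPM in ρ0 vector cells, a log2 fold change of −0.46 (SE 0.19, edgeR adjusted p 0.194). In neither gene did the libraries overlap, and neither passed under the 15 alternatives with an adjusted p (DESeq2 gave none for either gene), which ran from 0.0576 to 0.49 for TPK3 and from 0.11 to 0.471 for TPK2. Against ρ0 TIP41 cells, where TPK2 had 47.8 and 63.4 CPM, its log2 fold change was −0.62 (95% interval −1.02 to −0.22, edgeR adjusted p 0.332).

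CYR1 had 78.1 and 78.1 CPM in ρ0 PDE2 cells, against 85.4 and 101 CPM in ρ0 vector cells, a log2 fold change of −0.25 (95% interval −0.58 to 0.07, edgeR adjusted p 0.367). PDE1, at 49.7 and 33.8 CPM against 43.9 and 63.4 CPM, had one of −0.39 with a wide interval (−0.93 to 0.15) and overlapping libraries. CDC25 (−0.14, interval −0.41 to 0.13), RAS2 (−0.02, −0.34 to 0.29) and BCY1 (0.11, −0.18 to 0.40) completed the list. BCY1 had 195 and 222 CPM in ρ0 PDE2 cells, against 185 and 202 CPM in ρ0 vector cells. RAS2, the main GTPase gene, had 204 and 153 CPM in ρ0 PDE2 cells, against 185.5 and 175 CPM in ρ0 vector cells.

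With the TIP41 plasmid no member passed the threshold (0 of 9 in edgeR, 0 in DESeq2 and in limma, and 0 at an unadjusted p under 0.05), where 0.412% of all genes were called (24 of 5832) and 10.7% had an unadjusted p under 0.05. Values ran from −0.29 for PDE2 (95% interval −0.65 to 0.07) to 0.29 for RAS1 (−0.01 to 0.59). Libraries did not overlap for 5 of 9 members, against 41.9% of all genes. Between the plasmids, ρ0 PDE2 against ρ0 TIP41, PDE2 was again the 1 member called, where 0.394% of all genes were (23 of 5832). For ρ0 PDE2 against ρ+ cells, where PDE2 again came on the plasmid and was the 1 member called, that share was 5.13%. For ρ0 TIP41 against ρ+ cells it was 5.25% and edgeR called 0 members, as did DESeq2, while 3 (PDE1, TPK2 and RAS1) had an unadjusted p under 0.05, against 18.4% of all genes.

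Per length, the pathway's transcripts differed widely in level. On the deposited FPKM scale, in ρ+ vector cells, RAS1 came first with 242.9 ± 36.8 FPKM (SD, n = 2), above RAS2 with 178 ± 3.26 and BCY1 with 157 ± 33.5, whose libraries overlapped each other. PDE2 followed with 96.0 ± 16.0, then TPK3 with 56.0 ± 2.45, CDC25 with 38.8 ± 0.361 and TPK2 with 38.1 ± 6.50, the last pair overlapping. PDE1, with 27.2 ± 4.74, and CYR1, with 15.2 ± 2.31, were the lowest. CYR1 encodes the single enzyme that makes cAMP, and over the 8 libraries its mean of 14.4 FPKM exceeded that of 9.4% of the tested genes. The corresponding share was 83.1% for RAS1, 82.3% for PDE2, 82.2% for RAS2, 78.7% for BCY1, 50.9% for TPK3, 40.5% for TPK2, 37.5% for PDE1 and 35.1% for CDC25.

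The order changed at a few places between groups. RAS2, at 191 ± 16.0 FPKM in ρ0 vector cells, lay above RAS1, at 154.5 ± 22.1 FPKM, in both libraries of that group, and the next in order, BCY1 and PDE2, overlapped RAS1. PDE1 reached the level of TPK3 in ρ0 vector cells (52.2 ± 14.3 and 49.4 ± 0.0203 FPKM, libraries overlapping). In ρ0 PDE2 cells PDE2 came first with 442 ± 28.2 FPKM, above RAS1 with 210 ± 5.15 FPKM in both libraries. CDC25 varied least over the 8 libraries (coefficient of variation of FPKM 5.45%), followed by RAS2 (8.05%) and CYR1 (10.3%), and PDE2 varied most (82.8%). BCY1 was higher in replicate 1 than in replicate 0 of all 4 groups on the FPKM scale, at 173 to 209 against 119 to 133 FPKM. In CPM, computed from the estimated counts, the same libraries spanned 202 to 245 against 185 to 212 CPM.

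The balance between genes of the same role is given as the log2 ratio of their FPKM, with no test. PDE2 over PDE1 was 3.27 and 3.65 in ρ0 PDE2 cells, 1.37 and 1.04 in ρ0 TIP41 cells, 1.79 and 0.69 in ρ0 vector cells and 2.17 and 1.47 in ρ+ vector cells. The ρ0 PDE2 libraries were the highest, and the ρ0 vector libraries overlapped those of ρ0 TIP41 and of ρ+ cells. On the linear scale PDE2 was 9.67 and 12.6 times PDE1 in ρ0 PDE2 cells and 4.51 and 2.77 times PDE1 in ρ+ vector cells. Together, the transcripts of both phosphodiesterases summed to 509 and 455 FPKM in ρ0 PDE2 cells, against 187 and 162.5 FPKM in ρ0 vector cells and 131 and 115 FPKM in ρ+ vector cells.

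**Figure D4:**
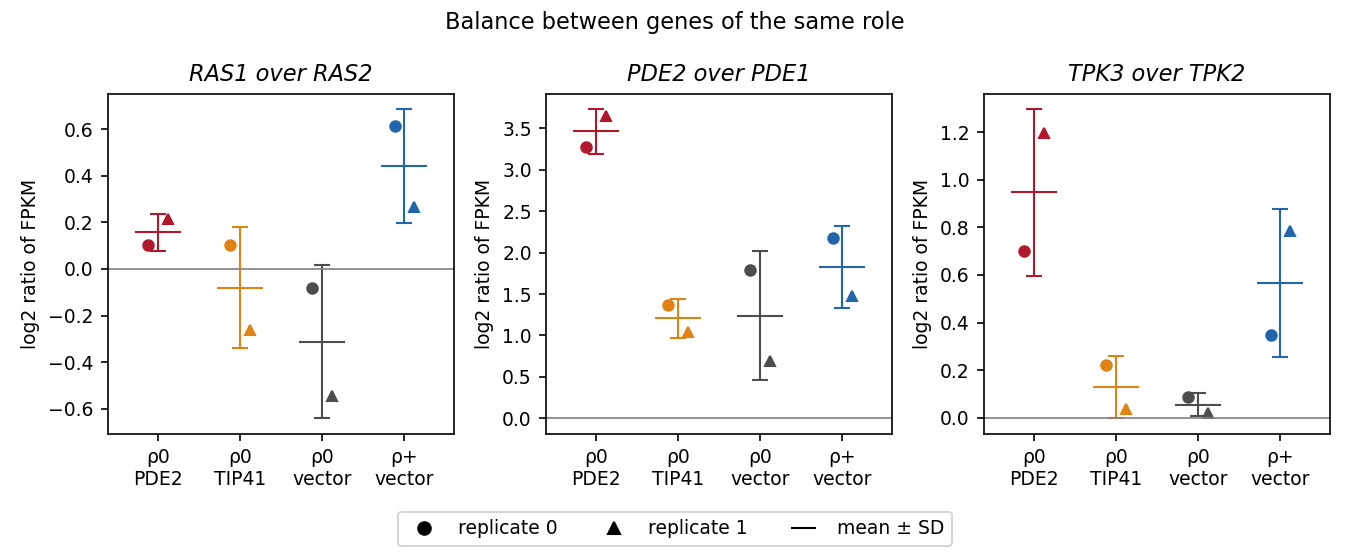
Log2 ratio of FPKM within 3 pairs of genes of the same role, per library (circles replicate 0, triangles replicate 1), with the mean and SD of each group; the grey line marks equal levels. PDE2 over PDE1 is highest in ρ0 PDE2 cells, RAS1 over RAS2 is below 0 in both ρ0 vector libraries and above 0 in both ρ+ libraries, and TPK3 over TPK2 is highest in ρ0 PDE2 replicate 1.

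RAS1 over RAS2 was 0.10 and 0.21 in ρ0 PDE2 cells, 0.10 and −0.26 in ρ0 TIP41 cells, −0.08 and −0.54 in ρ0 vector cells and 0.61 and 0.27 in ρ+ vector cells. RAS1 was thus the lower of the pair in both ρ0 vector libraries and the higher in both ρ+ libraries. In CPM per kilobase the ρ0 PDE2 values were −0.18 and 0.20, a mean of 0.01 where FPKM gave 0.16, and the ρ0 TIP41 values were −0.21 and −0.28, a mean of −0.24 where FPKM gave −0.08. Replicate 0 thus changed sign in both groups. TPK3 over TPK2 was 0.70 and 1.20 in ρ0 PDE2 cells, 0.22 and 0.04 in ρ0 TIP41 cells, 0.09 and 0.02 in ρ0 vector cells and 0.35 and 0.79 in ρ+ vector cells. The ρ0 vector and ρ0 TIP41 libraries lay near equal levels, and those of ρ0 PDE2 and ρ+ cells lay above them and overlapped each other. The sum of TPK2 and TPK3 was 98.5 and 107 FPKM in ρ0 PDE2 cells, 101 and 121 FPKM in ρ0 TIP41 cells, 95.9 and 98.1 FPKM in ρ0 vector cells and 97.0 and 91.3 FPKM in ρ+ vector cells, a narrow range.

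The promoters of the 9 genes were searched for AGGGG, the stress response element (STRE) bound by Msn2p and Msn4p, since PKA acts on those factors. The search covered both strands, where the element of the other strand reads CCCCT. In windows of 250 bases before to 50 bases after the start codon, 2 of 9 genes held it, PDE1 and CYR1, against 21.6% of the 6001 windows of all genes (1297). The sites are shown with the element in capitals, on the strand of the gene.
PDE1, chrVII:35617-35641, + strand of R64, 21 bases before the start codon: tcttcttcatCCCCTtttttaccaa
CYR1, chrX:424936-424960, + strand of R64, 206 bases before the start codon: gaaggaaagcAGGGGggacttacca
CYR1 also held TAGGGAT, the core of the post-diauxic shift element bound by Gis1p, found in 1.67% of windows (100), and no other member did. It was searched on both strands, the other strand reading ATCCCTA.
CYR1, chrX:425133-425159, + strand of R64, 7 bases before the start codon: agcaaacgaaATCCCTAggtcgaaatg
The AGGGG and TAGGGAT matches of CYR1 lie apart and do not overlap. A match is a description of the letters only. PDE1 was called with loss of mtDNA and CYR1, with a log2 fold change of 0.01, was not.

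Of the other genes of the pathway, 35 were listed by function and 33 were tested, while SDC25 and FLO8 were not analysed here. Between ρ0 vector and ρ+ vector cells 4 of the 33 were called, 3 higher and 1 lower in ρ0, or 12.1% against 13.9% of all genes. MSN4, whose product is a stress transcription factor restrained by PKA, had 48.3 and 43.6 CPM in ρ0 vector cells, against 103 and 75.7 CPM in ρ+ vector cells, a log2 fold change of −0.99 (SE 0.18, edgeR adjusted p 0.002). GPR1, the glucose receptor gene, had 97.2 and 111 CPM in ρ0 vector cells, against 80.0 and 71.5 CPM in ρ+ vector cells (log2 0.44, SE 0.13, edgeR adjusted p 0.0404). TFS1, which encodes an inhibitor of carboxypeptidase Y that also binds Ira2p, had 34.9 and 41.2 CPM, against 23.8 and 18.9 CPM (log2 0.78, SE 0.20, edgeR adjusted p 0.0189). SOK2, a PKA-linked regulator of filamentous growth, had 233 and 225 CPM, against 159 and 145 CPM (log2 0.58, SE 0.13, edgeR adjusted p 0.0075). None of these 4 genes overlapped between the groups. With the block 8 of the 33 passed, ASC1, GIS1, RGS2 and STE14 being added, and with limma on FPKM 0 passed. DESeq2 called 3, MSN4, SOK2 and ASC1. With 1 library left out, MSN4 and SOK2 passed without ρ0 vector replicate 1, SOK2 and RGS2 without ρ+ replicate 0, and MSN4 alone without ρ+ replicate 1. GPR1 was also lost in a fit of only the 2 groups and without ρ0 PDE2 replicate 1 or either ρ0 TIP41 library, none of which belongs to the groups compared.

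Against ρ+ cells, 1 of the 33 genes passed in ρ0 TIP41 cells, TFS1, at 41.2 and 52.0 CPM (log2 1.06, SE 0.20, edgeR adjusted p 0.00551), and it was lost in limma, without ρ0 TIP41 replicate 1 and without either ρ+ library. In ρ0 PDE2 against ρ+ cells 0 of 33 passed in edgeR, DESeq2 and limma, and 5 had an unadjusted p under 0.05, against 18.6% of all genes. The block called 4 there, GIS1, GPB1 and IRA1 lower (log2 −0.62, −0.54 and −0.44) and TFS1 higher (0.67), with adjusted p of 0.0352 to 0.0464.

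With the PDE2 plasmid, 0 of these 33 genes passed in edgeR and in limma, DESeq2 called 0 of the 23 to which it gave an adjusted p, and 2 had an unadjusted p under 0.05, against 19.7% of all genes. The block called 4, MSN4 (log2 0.53, adjusted p 0.0365), ADR1, a factor for alternative carbon sources (0.52, 0.0471), ASC1, a ribosomal protein that acts on Gpa2p (0.46, 0.0487), and IRA2, a Ras GTPase-activating protein (−0.43, 0.0322). ASC1 also passed without ρ0 vector replicate 0 (adjusted p 0.0159). With the TIP41 plasmid 0 of 33 passed in edgeR, in DESeq2 and in limma, 3 had an unadjusted p under 0.05, against 10.7% of all genes, and the block called 1, MSN4 (log2 0.62, adjusted p 0.0367). MSN4 stood at 77.5 and 56.8 CPM in ρ0 PDE2 cells and 70.3 and 71.2 CPM in ρ0 TIP41 cells, above both ρ0 vector libraries. The ρ0 vector libraries serve for both plasmids and for ρ0 against ρ+ cells, where MSN4 had −0.99. A low value in them thus moves all of these comparisons.

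**Figure D5:**
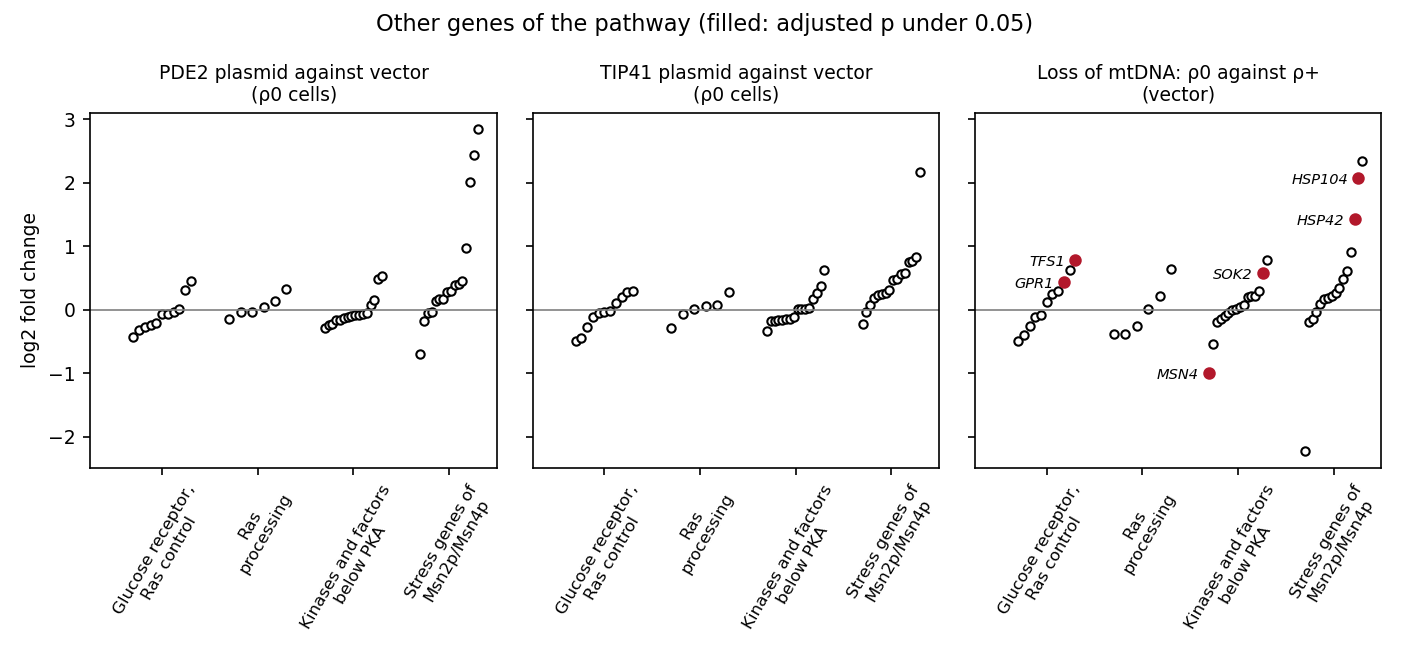
Log2 fold change of each other gene of the pathway and of the stress genes, in 4 groups by role, for the PDE2 plasmid, the TIP41 plasmid and loss of mtDNA; filled points have an edgeR adjusted p under 0.05. Filled points appear only in the panel of loss of mtDNA, where MSN4 lies at −0.99 and HSP104 and HSP42 at 2.07 and 1.43.

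Of 17 stress genes known as Msn2p and Msn4p targets, 16 passed the filter on low counts, DDR2 being too low. Between ρ0 vector and ρ+ vector cells 2 of the 16 were called, against 13.9% of all genes. Both are chaperone genes and are also known as targets of the heat shock factor Hsf1p. SSA3, HSP12 and HSP26, which the study links to Hsf1p too, were not called (log2 −0.03, 0.34 and 0.17, edgeR adjusted p 0.907 to 0.930). The 2 called were HSP104 and HSP42. HSP104 had 797 and 869 CPM in ρ0 vector cells, against 165 and 235 CPM in ρ+ vector cells (log2 2.07, SE 0.31, edgeR adjusted p 0.00337). HSP42 had 153 and 156 CPM, against 61.5 and 51.2 CPM (log2 1.43, SE 0.20, edgeR adjusted p 6.06e-04). In neither did the libraries overlap. HSP42 passed under all 16 alternatives, whereas HSP104 was lost without either ρ0 vector library. The block added TPS2, a trehalose-6-phosphate phosphatase gene (log2 0.80, adjusted p 0.00438), DESeq2 added SPI1, and TPS1 passed without ρ0 vector replicate 0. HXK1, which was lower in ρ0 vector cells (log2 −2.22 to −2.23), passed in a fit of only the 2 groups and without either ρ0 PDE2 library.

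With the PDE2 plasmid, 0 of the 16 stress genes passed in edgeR and in limma, DESeq2 called 0 of the 8 to which it gave an adjusted p, and 3 had an unadjusted p under 0.05, against 19.7% of all genes. HSP12, a small membrane-linked stress protein gene, had 230 and 71.0 CPM in ρ0 PDE2 cells, against 35.7 and 4.04 CPM in ρ0 vector cells. Replicate 0 was the higher in both groups, and the log2 fold change of 2.84 had a 95% interval of −0.27 to 5.96 (edgeR adjusted p 0.287). HSP26, a small heat shock protein gene, had 20.7 and 8.79 CPM in ρ0 PDE2 cells, against 3.601 and 3.228 CPM in ρ0 vector cells (log2 2.01, SE 0.57, edgeR adjusted p 0.0788). ALD3, an aldehyde dehydrogenase gene, had 27.8 and 30.8 CPM, against 13.7 and 16.5 CPM (log2 0.97, SE 0.24, edgeR adjusted p 0.0526). HSP104 was lower in ρ0 PDE2 cells, at 501 and 531 CPM against 797 and 869 CPM in ρ0 vector cells (log2 −0.69, SE 0.30, edgeR adjusted p 0.248). HSP26, ALD3 and HSP104 were the 3 with an unadjusted p under 0.05. The median log2 fold change of the 16 genes was 0.29. The block called 3, HSP26 (log2 2.06, adjusted p 0.00347), ALD3 (0.94, 0.0101) and HSP104 (−0.69, 0.0177). Without a filter on low counts ALD3 passed (adjusted p 0.0485). HXK1, a hexokinase gene, had 157.5 and 21.6 CPM in ρ0 PDE2 cells, against 19.5 and 11.3 CPM in ρ0 vector cells. Its log2 fold change was 2.43 (95% interval −0.71 to 5.58, edgeR adjusted p 0.345). Without ρ0 PDE2 replicate 1 it was 3.34, a value that rests on replicate 0 alone in that group. In ρ0 PDE2 against ρ0 TIP41 cells 0 of 16 passed in edgeR and limma, DESeq2 called 0 of the 12 to which it gave an adjusted p, and 2 had an unadjusted p under 0.05, against 6.58% of all genes. The block called HSP26 (log2 1.95, adjusted p 0.0185). HSP42, which was lower in ρ0 PDE2 cells, passed without ρ0 TIP41 replicate 0 (log2 −1.05).

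Against ρ+ cells, 4 of the 16, HSP26, HSP42, HSP104 and ALD3, were higher in ρ0 PDE2 cells (log2 2.18, 1.25, 1.39 and 1.15, edgeR adjusted p 0.00395 to 0.048), where 5.13% of all genes were called. Of these, DESeq2 called HSP42 and HSP104, and limma called 0. All 4 were lost without either ρ+ library. HSP104 was also lost without either ρ0 PDE2 or either ρ0 vector library. HSP26 was lost without ρ0 PDE2 replicate 0 or ρ0 vector replicate 1, and ALD3 without ρ0 PDE2 replicate 1. With the filter of 50 fragments 14 of the 16 were fitted, and only HSP42 and HSP104 were called. HSP26 had 35 and 26 fragments in the ρ0 PDE2 libraries and 14 and 5 in the ρ+ libraries. The block called 6, TPS1 (log2 0.74, adjusted p 0.0319) and TPS2 (0.78, 0.0103) being added.

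With the TIP41 plasmid 0 of 16 stress genes passed in edgeR and in limma, DESeq2 called 0 of the 15 to which it gave an adjusted p, and 3 had an unadjusted p under 0.05, against 10.7% of all genes. The block called PGM2, a phosphoglucomutase gene (log2 0.77, adjusted p 0.0352). HXK1 passed without ρ0 PDE2 replicate 0 (adjusted p 0.0414) and GSY2, a glycogen synthase gene, without ρ0 TIP41 replicate 0 (0.0465). Against ρ+ cells, 3 of the 16, HSP42, HSP104 and PGM2, were higher in ρ0 TIP41 cells (log2 2.00, 2.03 and 0.87, edgeR adjusted p 1.03e-04 to 0.0236), where 5.25% of all genes were called. HSP42 passed under all 16 alternatives. HSP104 was lost in a fit of only the 2 groups, without either ρ0 vector library and without ρ+ replicate 0, and PGM2 in limma and without either ρ0 TIP41 or either ρ+ library. The block added TPS1 (log2 0.84, adjusted p 0.014) and TPS2 (1.11, 4.40e-04).

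As a description of likeness, the gene whose log2(CPM + 1) correlated best with each member over the 8 libraries was sought among 4251 genes. For PDE2 it was HTB2, a histone H2B gene (Pearson r 0.957), and for PDE1 it was PMA2, a plasma membrane proton pump gene (0.976). RAS1 was most like FUR1, a uracil salvage gene (0.978), RAS2 most like RMD8 (0.946) and CDC25 most like YBT1, a bile acid transporter gene (0.960). CYR1 was most like BPT1, a vacuolar transporter gene (0.978), BCY1 like PHD1, a regulator of filamentous growth (0.953), TPK2 like UBC8, a ubiquitin-conjugating enzyme gene (0.955), and TPK3 like SRP21, a signal recognition particle gene (0.944). The points share 4 groups, and for each of the 9 members the best of 4251 coefficients is picked, so these values describe the 8 libraries only.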

How the data were processed

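RNA-seq of polyadenylated RNA was performed in 8 cultures, 2 for each of 4 groups, grouped by GEO's labels. The authors aligned paired-end MiSeq reads with TopHat2 2.0.14 to R64 and quantified genes with Cuffdiff 2.2.1.1 under geometric normalization, correcting for sequence bias and for fragments with several alignments. The estimated counts deposited by the authors are fragments per gene and library before scaling. The deposited FPKM values were scaled between libraries by Cuffdiff. The p-values deposited by the authors, from their own comparisons, were not used, nor were their fold changes.

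Rounded estimated counts were tested with edgeR 4.0.16 (R 4.3.3). Its filterByExpr kept 5832 genes, TMM factors were applied, and 1 robust quasi-likelihood model took all 8 libraries (4 residual degrees of freedom). P-values were adjusted by Benjamini-Hochberg across those 5832 genes. Intervals use t quantiles. Every member is alone at its locus and had whole estimated counts in all libraries (tolerance 0.001). Alternatives were RLE size factors, DESeq2 1.42.0, no filter, a filter of 50 fragments, a model of just the groups compared, a block for replicate number, limma 3.58.1 on log2(FPKM + 1) and log2(FPKM + 0.1), and each library left out. The replicate numbers were taken to pair the libraries, because deviations from the group means correlated in all 6 pairs of groups (r 0.186 to 0.545 over 5464 genes). The scripts were tested on simulated data. Libraries held 1389579 to 4884282 fragments. Intervals and errors rest on 2 cultures a group.

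The members and all gene lists were chosen with earlier results of these data known. Beyond the 9 members, genes past the threshold are named (all where 6 or fewer), as are TIP41, URA3, the 2 genes on each side of PDE2 and the gene most correlated with each member (average log2 CPM of at least 5). HSP12, HSP26, ALD3 and HSP104 with PDE2, the genes passing under an alternative, HIS3 and LEU2, and the haploid-specific genes were named after their values were seen. Motifs and primers were searched in RefSeq R64 with Python 3.11.15. Of 5223 genes alone at their locus, 99.5% have the same start and end in both annotations.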

Additional observations from a re-analysis of the deposited data

How the results depend on the processing

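For the 9 members in 6 comparisons, 861 values under 16 alternatives were set against the fit reported: 817 kept direction and side of the threshold, 13 lost the call, 3 gained it and 28 changed sign, all of the last among values not past the threshold. DESeq2 gave no adjusted p for a further 3, PDE1, TPK2 and TPK3 with PDE2. With the replicate block, the members called with PDE2 were 2 (RAS1 added), other pathway genes 4 with PDE2, 1 with TIP41 and 8 with loss of mtDNA, and stress genes 3 with PDE2, 1 with TIP41 and 3 with loss of mtDNA. For ρ0 PDE2 against ρ+ the block gave 4 other pathway genes, where 0 were reported, and 6 stress genes, where 4 were. It gave 5 stress genes for ρ0 TIP41 against ρ+, where 3 were, and 1 for PDE2 against TIP41, where 0 were. The block changed no other call of a member. In limma with FPKM pseudocounts of 1 and of 0.1, members called were 0 with PDE2, 0 for PDE2 against TIP41 and 0 with loss of mtDNA, and other pathway genes 0 with loss of mtDNA. Without a filter 1 stress gene was called with PDE2, and in a fit of only the 2 groups 1 member (PDE1) was called for ρ0 TIP41 against ρ+, 9 stress and 2 other pathway genes for ρ0 PDE2 against ρ+ and 5 stress genes for ρ0 TIP41 against ρ+. Leaving out each library in turn, members called ran from 1 to 2 with PDE2 and from 0 to 2 with loss of mtDNA, other pathway genes from 0 to 1 with PDE2 and 1 to 5 with loss of mtDNA, and stress genes from 0 to 1 with PDE2, 0 to 1 with TIP41 and 1 to 3 with loss of mtDNA. The cause of these changes was not tested. RAS1 over RAS2 in ρ0 PDE2 cells moved to a log2 ratio of 0.00978 in CPM per kilobase.

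Log2 fold changes that changed sign were small. CYR1 with loss of mtDNA was −0.0002727 in DESeq2 and −0.01423 and −0.01476 in limma, and ρ0 TIP41 against ρ+ it was 0.003298 with the filter of 50 fragments. BCY1 in ρ0 PDE2 against ρ+ was −0.002199 without a filter and −0.008698 with the block. Leaving out each library, PDE1 ran from −0.534 to 0.0484 with TIP41 and −0.41 to 0.146 for PDE2 against TIP41. CYR1 ran from −0.136 to 0.11 with TIP41, −0.191 to 0.177 with loss of mtDNA and −0.218 to 0.162 in ρ0 TIP41 against ρ+. RAS2 ran from −0.232 to 0.175 with PDE2, −0.00931 to 0.221 with loss of mtDNA, −0.297 to 0.09997 for PDE2 against TIP41 and −0.136 to 0.267 in ρ0 PDE2 against ρ+. CDC25 ran from −0.0686 to 0.122 for PDE2 against TIP41 and −0.155 to 0.0282 in ρ0 PDE2 against ρ+. TPK2 ran from −0.0572 to 0.367 with TIP41 and −0.269 to 0.0381 in ρ0 PDE2 against ρ+. In ρ0 TIP41 against ρ+, PDE2 ran from −0.224 to 0.261 and TPK3 from −0.0283 to 0.165, and in ρ0 PDE2 against ρ+ BCY1 ran from −0.0983 to 0.0967.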
